A study of Rattus norvegicus with 16 samples.

Results

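The Dlk1-Dio3 cluster is an imprinted stretch of rat chromosome 6 that holds a large set of miRNAs, and its members on a rat miRNA array were examined in adult liver with and without furan. Members were chosen by name alone, as array miRNAs that carry the number of a miRNA of the cluster and no star, which gave 48 of the 677 miRNAs on the array. No measured value entered that choice. miR-882, which the naming rule also lists, had no probe on the array.

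In this imprinted domain the miRNAs and other noncoding RNAs are made from the maternal chromosome, while the protein-coding genes Dlk1, Rtl1 and Dio3 are expressed from the paternal chromosome. The miRNAs are processed from long noncoding transcripts that include Meg3, an RNA antisense to Rtl1, and Mirg. They are known as abundant in embryo, placenta and adult brain, and in newborn mice the Mirg miRNAs take part in the adaptation of liver metabolism to birth.

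Liver RNA came from 16 F344 rats that were 7 to 8 weeks old when dosing began, and each array carried the RNA of 1 animal. Control females and control males, 4 of each, received corn oil with furan at 0 mg/kg bw/day. Furan-treated females and furan-treated males, also 4 of each, received 2 mg/kg bw/day by gavage on 5 days per week for 90 days. Furan is a small volatile compound that forms in heated food and harms the liver, and the comparisons ask whether it changes miRNA levels in either sex.

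Animals are named here by group and number. The arrays lay on 2 slides, with 2 arrays of each group on each slide. Intensity means the brightness of a spot, less the background that Agilent Feature Extraction estimated, on a linear scale in arbitrary units, and it can be negative. On this scale the negative-control spots, which should bind no miRNA, had array medians of 75.6 on control male 2, 23.1 on control male 5, 15.8 on furan female 85 and 0.46 to 11.4 on the other 13 arrays. Detected means that Feature Extraction marked the miRNA as present on that array.

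Arrays of 3 animals stood apart from the others. The 434 negative-control spots had a median brightness, before background subtraction, of 294 (control male 2), 165 (control male 5) and 108.25 (furan female 85), against 49 to 89 on the other 13 arrays. Feature Extraction put the additive error out of range on control male 2 (48.4) and control male 5 (20.3). On furan female 85 it was 11.8 and in range. These arrays had the fewest detected miRNAs of any kind, with 46, 71 and 76, against 110 to 216 on the other 13. The members' detection totals and the fold changes of single miRNAs are therefore given with and without them.

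The label of the set was checked against the RefSeq tables of rat assembly GRCr8. All 48 members had a hairpin entry there, 44 hairpins in all, and 48 of 48 lay between Dlk1 and Dio3 on the plus strand of chromosome 6, at chr6:134298084-134579838. The gene order was Dlk1, Meg3, Rtl1 and Dio3. On the Meg3 side lay 6 members at chr6:134298084-134321754 (miR-770, miR-673, miR-493, miR-337, miR-540 and miR-665). The antisense strand of Rtl1 held 5 at chr6:134326449-134331416 (miR-431, miR-433, miR-127, miR-434 and miR-136), followed by miR-341 and miR-370 at chr6:134347815-134354569. The other 35 members lay in the Mirg stretch at chr6:134543445-134579838, which runs from miR-379 to miR-410.

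Most of the cluster gave no signal that Feature Extraction accepted in these livers. Of the 48 members, 10 were detected on at least 1 of the 16 arrays (20.8%), and 38 were detected on none. Of the 629 other miRNAs on the array, 254 were detected on at least 1 array (40.4%). Counted over members and arrays, 35 of 768 possible detections were made (4.56%), against 2276 of 10064 for the other miRNAs (22.6%). No member was among the 42 miRNAs detected on all 16 arrays. In whole liver, fewer cells that make a miRNA and less of it per cell cannot be told apart. Leaving out control male 2, control male 5 and furan female 85, a choice made after seeing the data, kept all 10 members and all 35 detections, since no member was detected on those 3 arrays.

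The detections were concentrated in few members. miR-494 was detected on 11 arrays, miR-667 on 8 and miR-409-3p on 7, which together make 26 of the 35 detections. miR-487b and miR-539 were detected on 2 arrays each. miR-668 was detected on control female 4 alone, and miR-154, miR-299, miR-329 and miR-376b-5p on furan female 83 alone. All 10 detected members lay in the Mirg stretch, so 10 of its 35 members were detected, against 0 of 6 on the Meg3 side, 0 of 5 antisense to Rtl1 and 0 of 2 between these and Mirg.

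**Figure D1:**
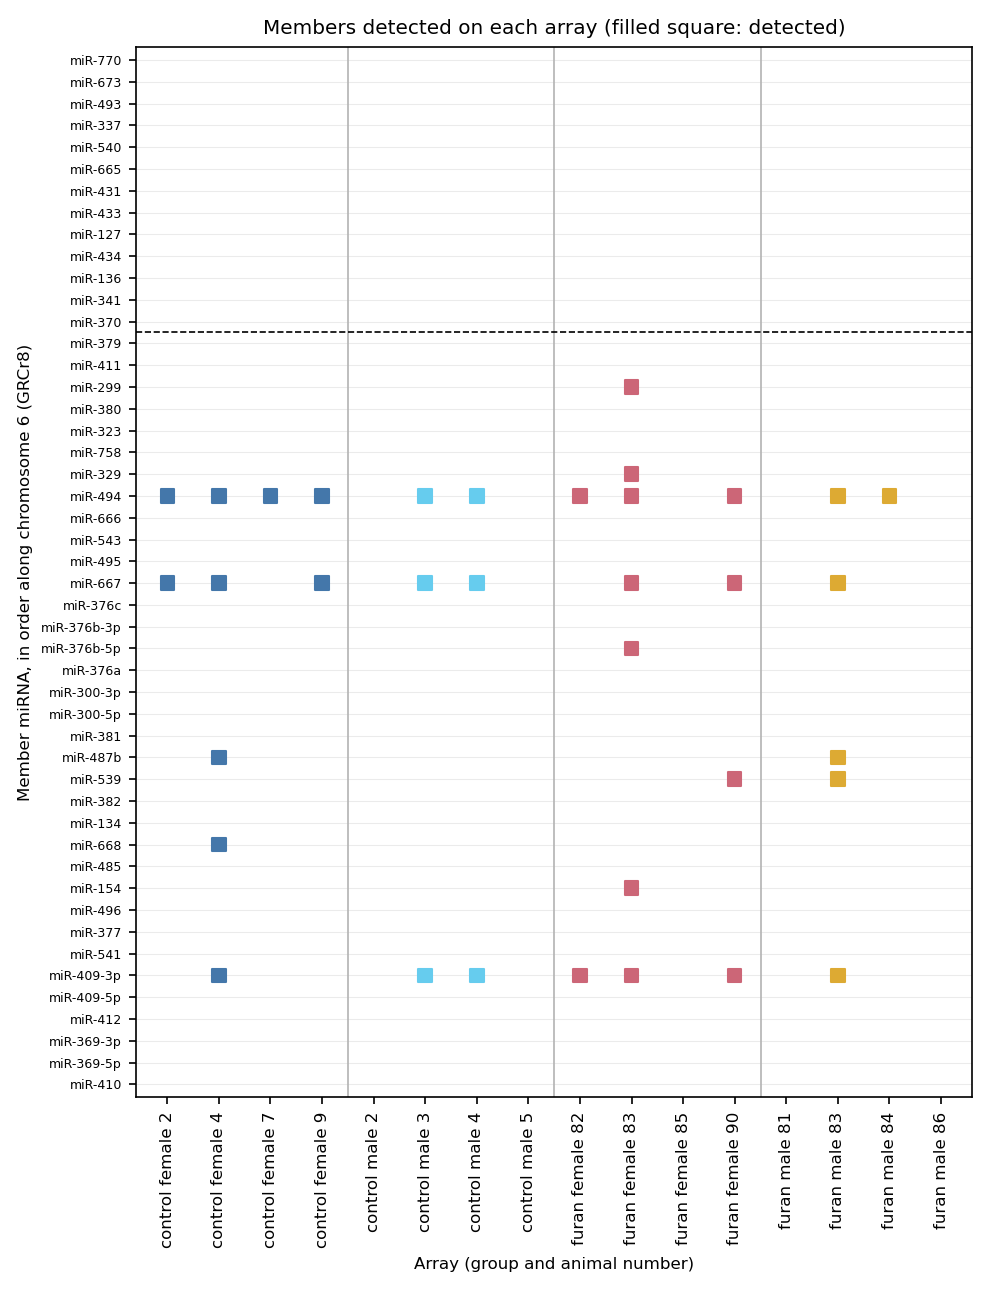
Detection of each of the 48 members, listed along the vertical axis in their order on chromosome 6, on each of the 16 arrays along the horizontal axis. A filled square is an array on which Feature Extraction detected the member, and the dashed line marks the start of the Mirg stretch, above which no member was detected.

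Detections were spread over all groups. Control females had 10 detections from 5 members, control males 6 from 3, furan-treated females 13 from 8 and furan-treated males 6 from 5. The 629 other miRNAs had 669, 399, 630 and 578 detections in these groups, from 226, 155, 227 and 214 miRNAs. In control rats 5 members were detected and in furan-treated rats 9, with 4 in both. Of the other miRNAs, 226 were detected in control rats and 245 in furan-treated rats, with 217 in both, so that 28 were detected in furan-treated rats only and 9 in controls only. miR-668 was detected in controls only, on 1 array. The 5 members detected in furan-treated rats only were miR-154, miR-299, miR-329, miR-376b-5p and miR-539, of which the first 4 came from furan female 83 alone. Without that animal, 6 members were detected on at least 1 array in place of 10.

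The number of members detected varied with how many miRNAs of any kind an array showed. Control females 2, 4, 7 and 9 had 2, 5, 1 and 2 members detected, beside 167, 211, 147 and 144 other miRNAs. Control males 2, 3, 4 and 5 had 0, 3, 3 and 0 members, beside 46, 143, 139 and 71 others. Control males 2 and 5 were low on both counts. Furan females 82, 83, 85 and 90 had 2, 7, 0 and 4 members, beside 182, 198, 76 and 174 others. Furan males 81, 83, 84 and 86 had 0, 5, 1 and 0 members, beside 115, 210, 143 and 110 others. The 5 arrays with no member detected were those with the fewest other miRNAs, and the 3 arrays with 5 or more members were those with the most.

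**Figure D2:**
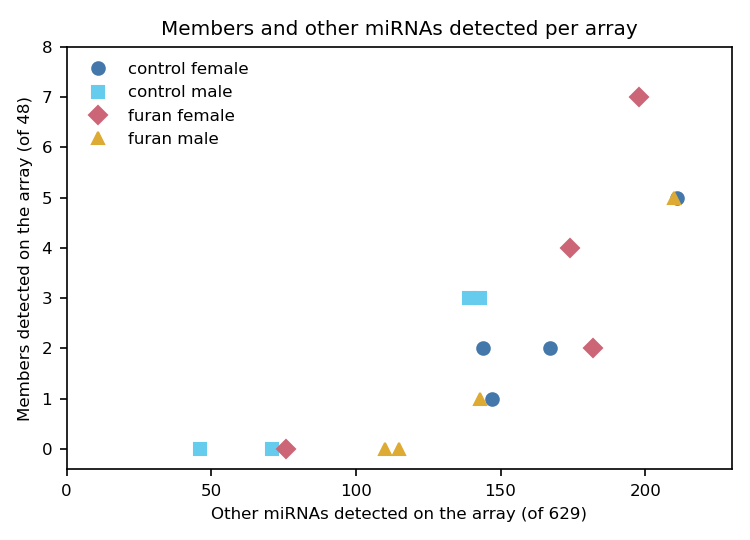
Members detected on each array (of 48, vertical axis) against other miRNAs detected on the same array (of 629, horizontal axis), with 1 point per array, coloured and shaped by group. Arrays with 0 members sit at 46 to 115 other miRNAs, and arrays with 5 or 7 members at 198 to 211.

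Slides differed as well. On slide 1, 26 member detections came from 10 members, and on slide 2, 9 came from 3. Over all miRNAs, slide 1 had 1287 detections and slide 2 had 1024, each from 8 arrays. The part of the slide and of the sensitivity of each array in these counts was not tested.

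The intensity of the members was low. The median over members was −1.97 as the middle value of the 16 arrays, and ranged from −65.0 on control male 2 to 1.73 on furan female 83. Without the 3 arrays of high negative-control signal, the range was −9.22 to 1.73. The other 629 miRNAs, most of which were not detected on a given array either, had array medians of −63.2 to 2.34. On 15 of 16 arrays the members' median lay below that of the negative-control spots, furan female 83 being the exception. The distance was wide where empty spots were bright, with −65.0 against 75.6 on control male 2 and −35.5 against 23.1 on control male 5. The other miRNAs' median also lay below that of the negative-control spots, except on control female 4, furan female 83 and furan male 83. On control males 2 and 5 it was −63.2 and −34.7, close to that of the members.

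By group, the array medians of the members overlapped. They ran from −2.40 to 0.22 in control females and from −65.0 to 0.72 in control males. In furan-treated females they ran from −16.7 to 1.73, and in furan-treated males from −9.22 to 0.36. The lowest values of control males and furan-treated females were those of control male 2 and furan female 85.

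Among the 38 members that were never detected, 12 had every probe under 1 on every array. None of the 38 exceeded the 99th percentile of the negative-control spots on any of the 16 arrays. The highest mean intensities over arrays were those of miR-337 (4.43), miR-434 (1.35) and miR-369-5p (−0.46), and the lowest those of miR-376c (−16.6), miR-666 (−17.7) and miR-376a (−19.1). Probes differ in their own brightness, so this order is not one of abundance. miR-337 lies on the Meg3 side, and its highest probe value was 33.0, on control male 2, where empty spots were also bright. miR-434, which is antisense to Rtl1, did not exceed 10.5 on any array.

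Members with known functions outside or inside the liver, chosen after their values were seen, were among the undetected ones. The Rtl1 antisense miRNAs, which direct cleavage of the Rtl1 transcript, were detected on 0 of 16 arrays for each of the 5. miR-134, known for its part in the growth of dendritic spines, and miR-370, described as acting on lipid metabolism in liver cells, were also detected on 0 arrays. For a miRNA below background an array gives only an upper limit in its own units, so low expression and absence were not distinguishable.

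miR-494 was the only member detected on all 4 arrays of a group, the control females, and so the only one of 48 tested for furan among the 128 miRNAs that met that requirement. Since it met it only through control females, its differences from control females, with furan or in control males, lean towards a lower value by that selection. Its hairpin is in the Mirg stretch. The array name does not say which arm the 2 probes measure. Both mature arms are therefore printed from RefSeq GRCr8, at chr6:134550130-134550151 and chr6:134550163-134550185 on the plus strand, with the seed (bases 2 to 8, which pair with targets) in capitals.
miR-494-5p: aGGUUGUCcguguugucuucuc
miR-494-3p: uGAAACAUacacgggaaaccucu

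Brighter or brightest is used of the probe with the highest mean intensity over the 16 arrays. The brighter probe of miR-494 had intensities of 52.8, 69.8, 14.7 and 23.3 in control females 2, 4, 7 and 9. In furan females 82, 83, 85 and 90 they were 31.7, 38.2, 5.73 and 29.9. The furan values of females lay within the range of the controls, except that of furan female 85, which was lower and not detected. In control males 2, 3, 4 and 5 the same probe gave −67.4, 19.3, 17.0 and −12.0. Furan males 81, 83, 84 and 86 had 13, 69.5, 27.7 and 21.4. The negative values of control males 2 and 5 were on the arrays with bright empty spots, and miR-494 was not detected there. Among furan males, 83 and 84 were detected and 81 and 86 were not, and the values of the male groups overlapped.

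The dimmer probe of miR-494 stayed close to 0 wherever the miRNA was detected, between −2.84 and 4.83. Its lowest values were −76.5 on control male 2 and −43.5 on control male 5. It was under 1 on 12 of the 16 arrays, so the lower bound of 1 described next enters the mean of the probes on those arrays. The total signal that Feature Extraction assigns to a detected miRNA ranged from 9.85 to 50.4 over the 11 arrays with miR-494. For comparison of scale on the same arrays, the hepatocyte miRNA miR-122 had total signals of 23751 to 82475.

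**Figure D3:**
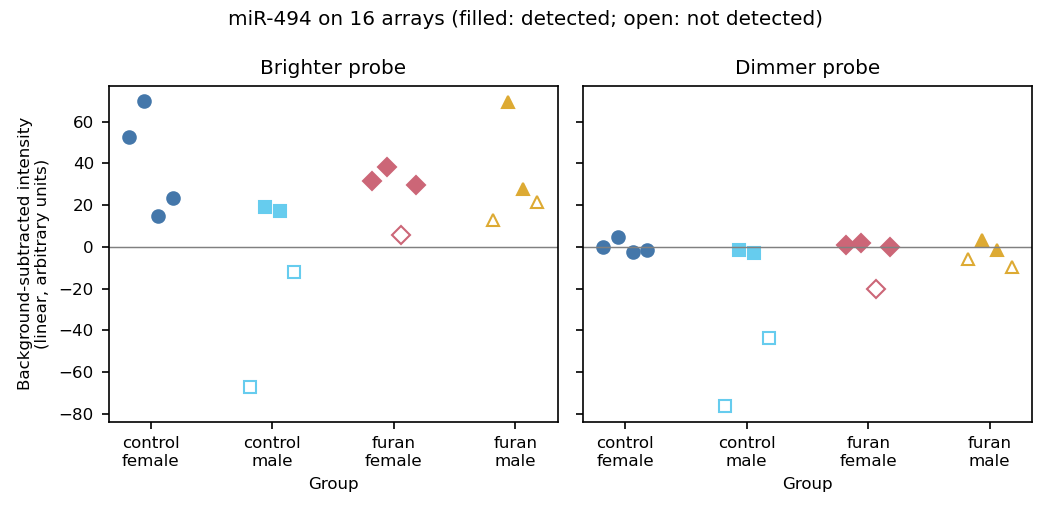
Background-subtracted intensity (linear, arbitrary units) of the brighter and the dimmer probe of miR-494 on the 16 arrays, by group, with 1 point per array. Filled points are arrays where the miRNA was detected and open points where it was not, and the lowest points are control male 2 (−67.4 and −76.5).

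Intensities under 1 were set to 1, log2 values were normalized between arrays by cyclic loess, and the probes of a miRNA were averaged. The normalized log2 intensity of miR-494 was then 2.30, 2.35, 1.88 and 1.91 in control females 2, 4, 7 and 9, with a mean of 2.11 ± 0.25 (SD, n = 4). In furan females 82, 83, 85 and 90 it was 1.78, 1.71, 2.07 and 2.40, with a mean of 1.99 ± 0.31 (SD, n = 4). The female groups overlapped, with the highest value in furan female 90 and the lowest in furan female 83. For females, limma estimated a log2 fold change of −0.12 with a 95% confidence interval from −0.59 to 0.35 and a standard error of 0.22 (adjusted p = 0.995), and the two-sided exact permutation test gave p = 0.543.

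Control males 2, 3, 4 and 5 had normalized log2 intensities of miR-494 of 1.75, 1.87, 2.37 and 1.59, with a mean of 1.90 ± 0.34 (SD, n = 4). Furan males 81, 83, 84 and 86 had 1.76, 2.59, 2.15 and 2.27, with a mean of 2.20 ± 0.34 (SD, n = 4). These groups overlapped too, and the values of control males 2 and 5 stem from intensities under 1 that the normalization raised. For males the estimate was 0.30 on the log2 scale, with a 95% confidence interval from −0.17 to 0.77 and a standard error of 0.22 (limma adjusted p = 0.380), and p = 0.286 in the exact permutation test. Over both sexes it was 0.088 (standard error 0.15, limma adjusted p = 0.742), and the interaction of furan and sex was 0.42 (standard error 0.31, limma adjusted p = 0.595). On this normalization the differences of miR-494 between furan and control were smaller than or similar to the spread between animals. The size in males depended on it, with a log2 fold change of 1.5 without normalization between arrays, a 95% confidence interval from 0.077 to 2.93 and a standard error of 0.67 (limma adjusted p = 0.103). Scaling to the 75th percentile gave 1.27 (standard error 0.64, limma adjusted p = 0.178).

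Without control male 2, control male 5 and furan female 85, the log2 fold change of miR-494 was −0.15 in females and 0.064 in males (limma adjusted p = 0.911 and 0.940). Over both sexes it then changed sign, to −0.046 (limma adjusted p = 0.902). Within slides, each with 2 arrays per group, the difference in females was −0.080 on slide 1 and −0.16 on slide 2. In males it was 0.70 on slide 1 and −0.10 on slide 2, so the direction in males did not hold within both slides. With the slide as a block in the limma model, the adjusted p was 0.995 in females, 0.371 in males and 0.737 over both sexes.

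limma called 0 of 1 tested members in every furan comparison. A miRNA counted as called if its fold change was at least 1.5 in either direction and its adjusted p at most 0.05. Among all 128 tested miRNAs, 1 was called in females (0.781%), 1 in males (0.781%) and 1 over both sexes (0.781%), and 0 for the interaction (0%). At an unadjusted p under 0.05 these comparisons held 10, 23, 20 and 13 miRNAs, none of them miR-494. Other settings and single arrays moved the counts of called miRNAs. In females 0 were called with 75th percentile scaling, with no detection filter or with the total signal per miRNA, 2 without normalization between arrays and 4 with quantile normalization. With the brightest probe 2 were called in males and 2 over both sexes. Without furan female 90 there were 8 in females, 7 over both sexes and 3 for the interaction, and without control male 4 there were 6 in males. In females, 3 were called without furan male 84 and 2 without control male 5, and over both sexes 2 when control female 4, furan female 83 or control male 4 was left out. No member was among the miRNAs called in any of these fits. Before these changes of setting or array, the 1 miRNA called in females, in males and over both sexes was miR-34a. Its log2 fold change was 2.12 in females and 2.07 in males. Without the 3 arrays of high negative-control signal these were 2.09 and 1.66, both called.

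Sex was compared in the controls. limma called 12 of 128 miRNAs between control males and control females (9.38%), with 46 at an unadjusted p under 0.05, and 0 of 1 members. The number called was 25 without control male 3, 27 without control male 4, 7 without control female 2 or control female 4, and 8 without control male 5, with 0 members in each. It was 0 with no detection filter, 2 with normexp background correction or the deposited table, 3 with the total signal and 4 without background subtraction, again with 0 members. For miR-494, which entered the test through control females, limma gave a log2 difference of −0.21 (adjusted p = 0.468) and p = 0.314 in the exact permutation test. The within-slide differences were −0.40 on slide 1 and −0.027 on slide 2. Without the 3 arrays of high negative-control signal the difference was −0.11 (limma adjusted p = 0.936). With no normalization between arrays, miR-494 was 1 of the 45 miRNAs called among 128 in this comparison (35.2%).

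All 48 members were also fitted without a detection filter, which includes miRNAs at background. limma's adjusted p of the members was then 0.796 or more in females, 0.836 or more in males, 0.951 or more over both sexes, 0.795 or more for the interaction and 0.528 or more between control sexes. At an unadjusted p under 0.05, 1 of 48 members (miR-431) was among 38 of 677 miRNAs in females (5.61%). In males 0 of 48 were among 43 (6.35%), and over both sexes 0 of 48 among 35 (5.17%). For the interaction 2 of 48 (miR-300-5p and miR-668) were among 32 (4.73%), and between control sexes 1 of 48 (miR-494) among 60 (8.86%). None of these counts of members lies above the share found over the whole array. miR-431 and miR-300-5p were never detected and miR-668 was detected once, so no fold change is given for them.

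miR-667 had the second largest number of detections and could be fitted when the filter was set to detection on at least 8 arrays, which 143 miRNAs met. Its hairpin also lies in the Mirg stretch, and its array name gives no arm. Both arms are shown from RefSeq GRCr8 for that reason, at chr6:134555351-134555374 and chr6:134555392-134555413 on the plus strand, with the seed in capitals.
miR-667-5p: cGGUGCUGguggagcagugagcac
miR-667-3p: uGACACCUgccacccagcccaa

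The brighter probe of miR-667 had intensities of 13.8, 11.8, 9.91 and 17.4 in control females 2, 4, 7 and 9. Furan females 82, 83, 85 and 90 had 6.64, 14.6, 0.85 and 11.1. The female groups overlapped, and miR-667 was not detected in control female 7 or in furan females 82 and 85. In males, controls 2, 3, 4 and 5 had −8.16, 13.8, 10.8 and −1.41, detected in 3 and 4 only. Furan males 81, 83, 84 and 86 had 6.39, 18.1, 9.10 and 6.68, detected in 83 only. On this scale the male groups overlapped, with the highest value in a furan male and the lowest in a control male.

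After normalization with that filter, miR-667 had log2 intensities of 3.56, 3.35, 3.69 and 3.30 in control males 2, 3, 4 and 5, with a mean of 3.47 ± 0.18 (SD, n = 4). Furan males 81, 83, 84 and 86 had 2.43, 2.80, 2.84 and 1.98, with a mean of 2.51 ± 0.40 (SD, n = 4). All 4 furan males were below every control male, although on control males 2 and 5 the intensities of both probes were under 1 before the normalization raised them. The log2 fold change in males was −0.96 (standard error 0.32, 95% confidence interval −1.66 to −0.27). The limma adjusted p was 0.217, so it was not called, while the fit called 1 of 143 miRNAs in males (0.699%) and held 25 at an unadjusted p under 0.05. The two-sided exact permutation test gave p = 0.0286, the smallest that 4 arrays against 4 allow.

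In females the normalized log2 intensities of miR-667 were 2.73, 2.20, 3.23 and 3.31 in control females 2, 4, 7 and 9, with a mean of 2.87 ± 0.51 (SD, n = 4). Furan females 82, 83, 85 and 90 had 1.58, 2.50, 2.41 and 3.20, with a mean of 2.43 ± 0.66 (SD, n = 4). The groups overlapped, with a log2 fold change of −0.44 (standard error 0.32, limma adjusted p = 0.907) and p = 0.314 in the exact permutation test. Over both sexes it was −0.70 (limma adjusted p = 0.137), and the interaction was −0.52 (limma adjusted p = 0.618), so a difference between the sexes was not called. With this filter limma called 1 of 143 miRNAs in females (0.699%), 1 over both sexes (0.699%) and 0 for the interaction (0%), with 11, 22 and 20 at an unadjusted p under 0.05. miR-667 was among the 25 miRNAs at that level in males and the 22 over both sexes, and not among those in females or for the interaction. Within slides the difference of miR-667 in males was −0.93 on slide 1 and −0.99 on slide 2, where each slide holds 1 of control males 2 and 5. On both of these arrays miR-667 was not detected and its probes were under 1 before normalization. In females the difference was 0.10 on slide 1 and −0.98 on slide 2, so the direction in females did not hold within both slides. Without the 3 arrays of high negative-control signal, a choice made after seeing the data that leaves control males 3 and 4, the log2 fold change was −1.02 in males (standard error 0.38, limma adjusted p = 0.271). In females it was −0.44 (standard error 0.34, limma adjusted p = 0.797), and over both sexes −0.73 (limma adjusted p = 0.194).

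miR-409-3p was the third member by number of arrays. RefSeq lists this arm as miR-409a-3p, and its sequence, at chr6:134579231-134579250 on the plus strand of GRCr8, is shown because the arm is known from the name.
miR-409a-3p: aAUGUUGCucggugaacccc

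Its brightest probe had intensities of 11.3, 20.5, 7.61 and 11.8 in control females 2, 4, 7 and 9, with detection in 4 only. Furan females 82, 83, 85 and 90 had 13.8, 12.8, −6.78 and 17.8, detected in all but 85. The ranges overlapped although 3 furan females and 1 control female were detected. Controls 2, 3, 4 and 5 of the males had −75.2, 13.8, 11.2 and −35.0, detected in 3 and 4. Furan males 81, 83, 84 and 86 had 6.97, 15.7, 11 and 3.63, detected in 83 only. The detected control males lay between furan males 83 and 84. miR-409-5p, from the other arm of the same hairpin, was detected on 0 arrays.

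The remaining detected members were seen on 1 or 2 arrays, so no fold change is given for them. miR-487b was detected on control female 4 and furan male 83, where its brighter probe had intensities of 11.6 and 8.72, against −61.1 to 10.3 on the arrays without detection. miR-539 was detected on furan female 90 and furan male 83, with 9.88 and 8.03 at the probe of highest mean, against −42.3 to 9.23 elsewhere. On furan female 90 its other 3 probes were higher, up to 13.6. For both members the values on arrays with and without detection overlapped.

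miR-329 and miR-154 behaved unlike the members above on the arrays with bright empty spots. The brighter probe of miR-329 had 5.48, 1.55, 2.83 and 14.5 in control females 2, 4, 7 and 9, and 74.8, 3.32, 5.23 and 51.4 in control males 2, 3, 4 and 5. In furan females 82, 83, 85 and 90 it had 2.08, 21.7, 21.7 and 5.87, and in furan males 81, 83, 84 and 86 it had 9.98, 1.93, 13.4 and 19.7. Its highest values were therefore on control males 2 and 5, where it was not detected, and it was detected on furan female 83 only. The brighter probe of miR-154 had 3.03, 3.97, 4.69 and 14.7 in control females 2, 4, 7 and 9, and 17.0, 5.31, 4.23 and 21.4 in control males 2, 3, 4 and 5. In furan females 82, 83, 85 and 90 it had 4.41, 19.9, 6.80 and 8.52, and in furan males 81, 83, 84 and 86 it had 6.71, 4.87, 8.15 and 14.7. It too was detected on furan female 83 alone, with control male 5 giving the highest value.

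Mature sequences were compared among members. RefSeq GRCr8 held 81 mature sequences for the 48 members. For 13 members the array name, or a renamed arm, fixed which of them is meant, and for 35 the arm was not paired. The 81 sequences had 77 different seeds, of which 3 were shared. GGUUGUC was shared by miR-494-5p, miR-410-5p and miR-496-5p, AUACAAG by miR-381-3p and miR-539-3p, and UGGAUAU by miR-376b-5p and miR-376c-5p. The first set is printed because it is the largest and includes an arm of the miR-494 hairpin. Whether the probes named miR-494, miR-410 and miR-496 measure these arms is not known. The other sequences of the set lie at chr6:134579773-134579793 and chr6:134575062-134575081 on the plus strand. Capitals mark the seed.
miR-410-5p: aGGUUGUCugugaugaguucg
miR-496-5p: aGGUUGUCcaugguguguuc

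Base composition was described for the same sequences. The 17 mature sequences of detected members had a median GC content of 45.8% (31.8% to 66.7%), and the 64 of undetected members 48.9% (23.8% to 72.7%). Among members with a paired arm, the median was 55.0% for 3 detected and 46.6% for 10 undetected. The ranges overlapped, and no test was made.

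The other arms of the same hairpins gave a similar picture of few detections. The array carried 35 miRNAs with a star, the older name for the less abundant arm, from these hairpins, and 5 were detected on at least 1 array. They were miR-485* on 12 arrays, miR-487b* on 6, miR-770* on 2, and miR-494* and miR-540* on 1 each. miR-770* and miR-540* are from the Meg3 side, where 0 of 6 members without a star were detected.

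miR-485* was the star arm with the most detections, while miR-485 itself had none. Its brighter probe had intensities of 47.4, 39.7, 32.7 and 65.1 in control females 2, 4, 7 and 9, and of 0.38, 22.6, 13.4 and 25.9 in furan females 82, 83, 85 and 90. All 4 furan females were below every control female on this scale, before normalization. How many of all miRNAs separate in this way on that scale was not counted. After normalization 1 of the 4 furan females was below every control female, and limma called 0.781% of the tested miRNAs in that comparison. Control males 2, 3, 4 and 5 had 81.5, 31.2, 22.9 and 57.5, and furan males 81, 83, 84 and 86 had 24.9, 58.1, 47.6 and 41.1. The male groups overlapped, and the highest control values were on control males 2 and 5, where miR-485* was not detected. After normalization the log2 fold change was −1.46 in females (standard error 1.11, limma adjusted p = 0.928, exact permutation p = 0.257). In males it was −2.20 (standard error 1.11, limma adjusted p = 0.255, exact permutation p = 0.0857), with normalized log2 intensities of 9.72 and 7.88 in control males 2 and 5 against 4.83 and 4.88 in control males 3 and 4. Within slides 1 and 2 it was −0.40 and −2.51 in females, and −1.74 and −2.67 in males, where each slide holds 1 of control males 2 and 5. Without the 3 arrays of high negative-control signal the log2 fold change was −0.16 in males (standard error 0.94, limma adjusted p = 0.951), so the size in males rested on control males 2 and 5. In females it was then −1.91 (standard error 0.83, limma adjusted p = 0.552). The lowest normalized value among all 16 arrays was 0.04, in furan female 82, where miR-485* was not detected. Furan females 83, 85 and 90 had 3.78, 4.38 and 4.58, within the range of control females, from 3.74 to 5.43. The size in females therefore rested largely on furan female 82.

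Further miRNAs that RefSeq places in the locus, outside the naming rule, were listed after the data had been seen. Of 14 on the array, 3 were detected, miR-1188-3p on 11 arrays, miR-3544 on 7 and miR-1193-3p on 1. miR-1188-3p lies near miR-341, at chr6:134348201-134348217 on the plus strand, and is printed because it was detected as often as miR-494, outside the Mirg stretch.
miR-1188-3p: cGAGGCUCcccaccaca

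The probe of miR-1188-3p with the higher mean had intensities of 16.7, 13.4, 14.3 and 20 in control females 2, 4, 7 and 9, and of 9.08, 14.4, 2.67 and 12.2 in furan females 82, 83, 85 and 90. Control males 2, 3, 4 and 5 had −21.8, 15.2, 15.8 and −13.2, and furan males 81, 83, 84 and 86 had 11.3, 19.6, 17.5 and 4.26. The groups overlapped in both sexes at this probe. At the other probe control females ran from 14.6 to 19.0 and furan females from −3.41 to 14.0, without overlap. How many of all miRNAs separate in this way was not counted. miR-1188-3p met the requirement for testing only through control females, detected on all 4 arrays. Its difference in females therefore leans towards a lower value by that selection. The log2 fold change was −0.42 in females, with a limma adjusted p of 0.972, and −0.78 in males, with a limma adjusted p of 0.260 (standard error 0.44 for both). Without the 3 arrays of high negative-control signal it was −0.43 in females and −1.09 in males (limma adjusted p = 0.881 and 0.370).

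Other clusters that are known for expression outside adult liver gave a scale for these counts. Of 9 array miRNAs of the embryonic miR-290 to miR-295 cluster, 2 were detected on at least 1 array, miR-290 on 13 and miR-291a-3p on 1, and 0 of its 2 star arms. Of 13 miRNAs of an X-linked testis cluster, 3 were detected, miR-465 on 7 arrays and miR-743a and miR-878 on 3 each, and 0 of its 10 star arms. The shares were 22.2% and 23.1%, against 20.8% of the Dlk1-Dio3 members, and no test of these differences was made.

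Markers of cell types were read on the same arrays. Of 33 marker miRNAs on the array, 23 were detected on at least 1 array. The hepatocyte markers miR-122, miR-192 and miR-194 were detected on all 16, which fits the labelled tissue. Of 6 neural markers, which share the tissue where the cluster is abundant, 1 was detected, miR-128 on 7 arrays, and miR-124, miR-9, miR-137, miR-218a and miR-218b were detected on 0. Their summed total signal, with 0.1 for each undetected miRNA, was between 0.60 and 29.2. Of 5 muscle markers 1 was detected, miR-206 on 3 arrays, with sums between 0.50 and 26.9.

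All 5 mesenchymal markers were detected, miR-143 on 16 arrays, with sums between 169 and 982. miR-126 of endothelium was detected on 16 arrays, 4 of 5 epithelial markers on at least 1, and all of the 2 erythroid, 4 leucocyte and 2 endocrine markers on at least 1. The summed signal of the epithelial markers was 0.50, 42.4, 20.5 and 0.50 in control males 2, 3, 4 and 5 and 132, 218, 60.6 and 65.5 in furan males 81, 83, 84 and 86. In control females 2, 4, 7 and 9 it was 26.7, 60.3, 0.50 and 43.4, and in furan females 82, 83, 85 and 90 it was 89.3, 167, 0.50 and 34.1. The groups overlapped in females, while in males every furan value lay above every control, on signals not normalized between arrays. The same held in males for the leucocyte sums (0.40 to 183 in controls, 241 to 304 with furan). It also held for the endocrine sums (0.20 to 13.2 in controls, 21.8 to 45.7 with furan). Control males 2 and 5 had the bright empty spots, and no epithelial or endocrine marker was detected there. Their epithelial sums of 0.50 and endocrine sums of 0.20 hold only the value given to undetected miRNAs. How many of all miRNAs separate in this way was not counted. Sums of the erythroid markers ran from 0.20 to 258 over all arrays and those of miR-126 from 388 to 1349. Of the 15 markers tested by limma, 0 were called for furan in females, in males, over both sexes or for the interaction, and 2 between control males and control females. The part of any of these cell types in the few signals of the cluster was not tested.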

How the data were processed

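miRNAs were measured in liver RNA of 16 rats, 4 in each of 4 groups, on Agilent arrays with 1 animal per array. The authors deposited Agilent Feature Extraction output, in which intensity is given per spot on a linear scale with no normalization between arrays. A second deposited file, the authors' normalized table, holds log2 values per miRNA, with column medians from 5.79 to 5.81. Which signal column it was made from, and with what background correction, is unknown. Of the columns of that table, 0 were left unused, and it served as an alternative only.

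Values reported here start from background-subtracted intensity. Control and outlier-marked spots were dropped, a floor of 1 was applied, log2 values were averaged per probe, normalized by cyclic loess (3 iterations) and averaged per miRNA. Testing was limited to the 128 miRNAs that some group showed on each of its 4 arrays. limma 3.58.1 in R 4.3.3 fitted 4 group means to all arrays, with Benjamini-Hochberg adjustment over all miRNAs tested. Two-sided exact permutation tests compared 4 arrays with 4, over 70 relabellings. The procedure was tested on simulated data. Tables were made in Python 3.11.15 with pandas 2.3.3. The number of arrays, and for dim miRNAs the background, limits the precision.

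Earlier results of these data were known when the members and lists were chosen, although the naming rule of the members uses no measured value. Named members follow a rule: those tested; every other detected member, with values for the 6 detected on most arrays, ties going to the higher mean intensity; of the undetected, the 3 with the highest and the 3 with the lowest mean intensity; members with an unadjusted p under 0.05 in a furan comparison; miR-122, miR-34a and the cell type markers. Values of miR-134, miR-370, miR-485*, miR-1188-3p and the other miRNAs of the comparison lists were named after they were seen, as were members given only by their place or group.

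Alternatives changed the normalization (none, quantile, 75th percentile), filter, signal column, floor, probe summary, detection rule and slide block, used the deposited table, or left out arrays. Control males and control females share the animal numbers 2 and 4, which label different animals, so a replicate block for them was an alternative only. qRT-PCR and mRNA arrays were not used here.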

Additional observations from a re-analysis of the deposited data

Results flagged for a closer look

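Values were examined for an animal far from the other 3 of its group, by the gap to its neighbour as a share of the group's range. Chance alone marks about 1 in 20 groups, or 2.4 of the 48 sets of 4 values examined, and 3 were found. These sets share arrays and are not independent, so 3 beside 2.4 is not a test.

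The brightest probe of miR-154 had an intensity of 14.7 on control female 9, against 3.03 to 4.69 on the other control females. miR-154 was not detected on that array.

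The other values both concern furan female 85. Its negative-control spots had a median brightness of 108.25, against 49 to 59 on the other furan-treated females. The median intensity of the members on it was −16.7, against −0.28 to 1.73. No member was detected on that array. The cause of these values was not tested.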

How the results depend on the processing

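In each furan comparison (females, males, both sexes and the interaction), 0 members were called by limma under the 15 alternatives and in 16 fits that each lacked 1 array (0 to 0). At an unadjusted p under 0.05, these comparisons held 10, 23, 20 and 13 of the 128 miRNAs. Alternatives that leave out the 3 arrays of highest negative-control signal, and pairs of choices changed at the same time, were chosen after seeing the data.

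Between control males and control females, 0 members were called with each array left out (0 to 0) and under 15 of 16 alternatives. Without normalization between arrays 1 was called, miR-494, with a log2 difference of −1.79. Its adjusted p was 0.0488 there, 45 of the 128 miRNAs were called in place of 12, and the cause was not tested.

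With animal numbers 2 and 4 as a replicate block, 0 members were called between control males and control females, and 17 miRNAs over the whole array in place of 12.

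The log2 fold change of miR-494 changed sign in females with quantile normalization (0.24) and in males with the total signal per miRNA (−1.08). Over both sexes it changed sign with the total signal (−0.55), the deposited table (−0.00086), without the 3 arrays of highest negative-control signal (−0.046), and without them at a filter of 8 arrays (−0.069). The cause was not tested. In males it was 1.5 without normalization between arrays and 1.27 with 75th percentile scaling, against 0.30. It kept its direction under 14, 14 and 11 of 15 alternatives in females, in males and over both sexes. With 1 array left out it ran from −0.24 to −0.031, from 0.17 to 0.47 and from 0.013 to 0.18. Over the 15 alternatives, adjusted p ranged from 0.911 to 0.996, from 0.103 to 0.991 and from 0.521 to 0.992.

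Of the 10 members detected on at least 1 array, 3 met a stricter rule of 2 arrays of 1 group (miR-494, miR-667 and miR-409-3p), since that rule asks for more arrays. With the 99th percentile of negative controls as the limit, 7 members were detected. They were miR-494 on 11 arrays, miR-409-3p and miR-329 on 3 each, miR-667 and miR-154 on 2 each, and miR-539 and miR-668 on 1 each. With each array left out the count ran from 6 to 10, the 6 being without furan female 83. The median member intensity was 53.1 without background subtraction in place of −1.97, because that signal contains the background. Signal over background limits what can be said of the 38 undetected members.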

Other observations

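miR-290, an embryonic miRNA detected on 13 arrays, had a mean normalized log2 intensity of 5.18 in control females (SD 0.38) and 5.26 in furan-treated females (SD 0.33), over 4 arrays each. Control males had a mean of 4.37 (SD 1.44) and furan-treated males of 5.02 (SD 0.48). It was not detected on control males 2 and 5, with 3.66 and 2.69, or furan female 85. Control males 3 and 4 had 5.40 and 5.71, and without these 3 arrays the log2 fold change in males changed sign, from 0.65 to −0.54 (limma adjusted p = 0.436 and 0.607). In females it was 0.079 with them and −0.00053 without them (limma adjusted p = 0.995 and 0.999).

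miR-3544 was detected on 7 arrays and is encoded on the minus strand, opposite to all 48 members. Its brighter probe had intensities of 9.58, 15.2, 9.01 and 9.77 in control females 2, 4, 7 and 9, and of 13.7, 15.4, 1.08 and 13.8 in furan females 82, 83, 85 and 90. Control males 2, 3, 4 and 5 had −47.7, 12.7, 10.4 and −11.3, and furan males 81, 83, 84 and 86 had 8.43, 13.9, 11.8 and 6.50. The groups overlapped in both sexes.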
